A study of Sus scrofa with 11 samples.

Results

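The contrast described here is the diet by vesicle interaction: the difference that injected extracellular vesicles (EV) made in hearts of pigs on a high fat diet (HFD), minus the difference they made in hearts of pigs on a normal diet (ND). All 11 arrays of the series entered it, in the groups their titles give, with 3 arrays of ND, 3 of ND+EV, 2 of HFD and 3 of HFD+EV. Every group was tissue from the ischemic zone of the left ventricle of male Yorkshire swine, and every animal, controls included, carried an ameroid constrictor on the left circumflex coronary artery. This device is a ring that swells and slowly narrows the vessel. The diets were given for 12 weeks, the injections went into the ischemic muscle, and tissue was taken 5 weeks after them. ND and HFD received vehicle, ND+EV and HFD+EV received EV, and the cells that released the EV are not named in the sources used here. The titles call the arrays of a group biological replicates, but no label ties an array to a named animal, so p-values measure the spread between these samples. The series asks whether the diet alters the angiogenic response to EV.

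Extracellular vesicles are membrane-bound particles that cells release with protein, lipid and RNA cargo and that other cells take up. In heart muscle with a narrowed artery they have been studied as a means to promote vessel growth. Cells that sense foreign nucleic acid or receive an interferon signal switch on the interferon-stimulated genes through JAK kinases and STAT transcription factors. Mitochondrial respiration supplies most of the energy of heart muscle, and the ubiquitin-proteasome and autophagy systems remove its damaged proteins and organelles.

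Values are the deposited log2 signal per probe set, and a gene with several probe sets is represented by the one brightest on average. A contrast above 0 means that EV minus vehicle was higher under HFD than under ND, and one below 0 that it was lower. Left ventricular muscle was well represented, with 7 measured cardiomyocyte markers at mean signals from 6.26 (PLN) to 13.39 (ACTC1). Array medians lay between 4.36 and 4.48, and the SD of an array's signal ran from 1.45 (ND replicate 1) to 1.62 (HFD replicate 2). ND replicates 1 and 3 stood apart, with mean correlations to the other arrays of 0.947 and 0.952 against 0.965 to 0.972 for the rest. On the first principal component HFD+EV replicate 1 (0.13) lay apart from replicates 2 and 3 of its group (-0.28 and -0.31) and beside arrays of the ND diet. These are called the 3 outlying arrays below. Without them 53 of the 112 genes named by rule had a contrast smaller by over 1.5 times. Array numbers limit the precision of every value, most of all in HFD.

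The first question was how many genes had a vesicle difference that depended on the diet. No gene passed the limma test after Benjamini-Hochberg adjustment (0 of 20668 probe sets and 0 of 9738 genes, 0.0% of either). The smallest adjusted p was 0.572, and each gene named below had an adjusted p of 0.572 or more. At an unadjusted p under 0.05 there were 800 probe sets with a higher contrast (3.87%) and 940 with a lower one (4.55%). Over genes these were 261 (2.68%) and 485 (4.98%). The median contrast over all genes was -0.03, and the median standard error (SE) was 0.25. A contrast of at least 1 in size was seen in 34 genes above 0 and in 155 genes below 0.

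In 554 of the 746 genes with an unadjusted p under 0.05 (74.3%) the means of both EV groups lay between those of the vehicle groups, against 34.8% of all genes. The 746 genes were taken for a large contrast, which favours this layout. In ATG4A, a protease that trims the ATG8 proteins of the autophagosome membrane, the means ran from 6.0 in ND through 6.74 in ND+EV and 6.78 in HFD+EV to 7.33 in HFD. Over the 746 genes the median size of the diet difference was 0.62 between the vehicle groups and 0.14 between the EV groups. Over all genes these medians were 0.23 and 0.13. The diet difference was larger between the vehicle groups than between the EV groups in 645 of the 746 genes (86.5%), against 68.1% of all genes. Without the 3 outlying arrays these shares were 74.1% and 56.8%, over 528 genes with an unadjusted p under 0.05.

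Fitted differences had opposite signs under the diets in 698 of the 746 genes (93.6%), against 54.3% of all genes. A large contrast arises most easily from opposite signs, so that the higher share follows in part from the choice of genes. EV was above vehicle under ND and below it under HFD in 463 of them, and the reverse held in 235. Over probe sets this split was closer, at 891 and 743 of 1740. Of all genes 46.5% had a contrast above 0. ND was the group farthest from the mean of the other groups in 328 genes (44.0%, against 34.3% of all genes). It was the low one in 238 of these (31.9%, against 19.0% of all genes). HFD was farthest in 317 (42.5%, against 33.9%), and it was the high one in 207 of these (27.7%, against 19.2%). ND+EV was farthest in 49 (6.57%, against 16.9% of all genes) and HFD+EV in 52 (6.97%, against 15.0%). Without ND replicate 1 and HFD+EV replicate 1, HFD was farthest in 32.6% of genes with an unadjusted p under 0.05, against 26.9% of all. ND was then farthest in 44.1%, against 35.5%. With all 3 outlying arrays left out, which leaves a single ND array, HFD was farthest no more often among such genes than among all genes. The vehicle groups hold both the arrays that stood apart under ND and the group of 2 arrays, and the part of either in this layout was not tested.

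**Figure D1:**
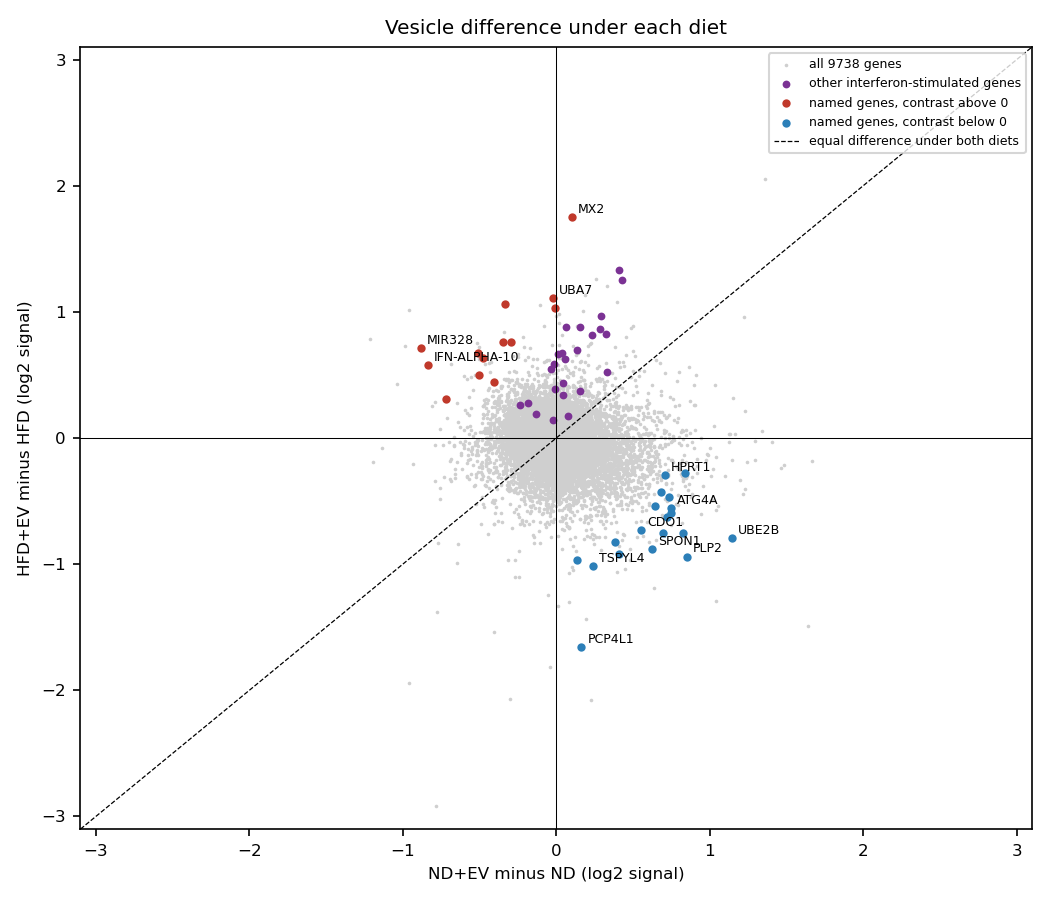
Each point is 1 of 9738 genes, with EV minus vehicle under ND on the x axis and under HFD on the y axis, both as differences of mean log2 signal. The named genes below 0 (blue) fill the lower right, with UBE2B at 1.14 under ND and -0.79 under HFD, while the interferon-stimulated genes (purple, and MX2, UBA7 and GBP1 among the red) lie between -0.24 and 0.43 on the x axis and above 0 on the y axis.

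Interferon-stimulated genes did not follow this layout. Of 40 listed genes 27 were measured, and all 27 had a contrast above 0, with a median of 0.57 against -0.03 over all genes. The unadjusted p was under 0.05 in 15 of them, against a background of 2.68% of genes in that direction. EV minus vehicle had a median of 0.06 under ND, with 18 of the 27 above 0, and of 0.67 under HFD, with all 27 above 0. HFD+EV was the group farthest from the others in 23 of the 27, against 15.0% of all genes, and HFD in the other 4, and neither ND nor ND+EV was farthest in any.

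MX2, a dynamin-like GTPase that blocks viruses, had the largest contrast of the list. Its signal was 5.13, 5.37 and 5.78 in ND, 5.20, 6.28 and 5.10 in ND+EV, 5.16 and 5.21 in HFD, and 6.65, 7.22 and 6.94 in HFD+EV. The HFD+EV arrays were above all 8 others, and the EV and vehicle arrays overlapped under ND. The contrast was 1.65 ± 0.44 (SE; unadjusted p = 0.00348), with a fold of 3.36 for EV against vehicle under HFD and 1.07 under ND.

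UBA7, the enzyme that activates the ubiquitin-like protein ISG15, read 5.40, 5.14 and 4.55 in ND, 5.14, 5.05 and 4.84 in ND+EV, 4.50 and 5.01 in HFD, and 6.05, 5.78 and 5.76 in HFD+EV. Again the 3 HFD+EV arrays were the highest of the 11 (contrast 1.13 ± 0.33). IFIT1, which binds viral RNA, lay between 4.79 and 5.39 on the 8 arrays of the other groups and read 5.95, 6.05 and 5.68 in HFD+EV (contrast 0.82 ± 0.25). GBP1, a guanylate-binding GTPase induced by interferon gamma, was less clear cut. Its HFD+EV arrays read 5.99, 5.53 and 5.19 and its HFD arrays 4.49 and 4.58, but ND replicate 1 read 5.28, so that the HFD+EV group overlapped the ND arrays (contrast 1.04 ± 0.32, or 0.49 without the 3 outlying arrays).

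In 16 of the 27 genes the 3 HFD+EV arrays were above the other 8, which held for 110 of all 9738 genes (1.13%). Beside MX2, UBA7 and IFIT1 these included the GTPase MX1 (contrast 0.58), the RNA sensor IFIH1 (0.58), the kinase EIF2AK2 (0.72), the transcription factor IRF9 (0.50) and LGALS9, a galectin (0.93). ISG12(A), the pig gene of the IFI27 family, had EV differences of 0.43 under ND and 1.25 under HFD. LGALS9 had 0.41 and 1.33. Members with the smallest contrasts were IRF7 (0.09), a regulator of interferon transcription, SP110 (0.17) and OAS2 (0.19). OAS2 was already high in HFD, at 8.12 and 7.81 against 5.14 to 6.90 in ND, and its HFD+EV arrays (9.32, 8.29 and 7.85) overlapped them.

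**Figure D2:**
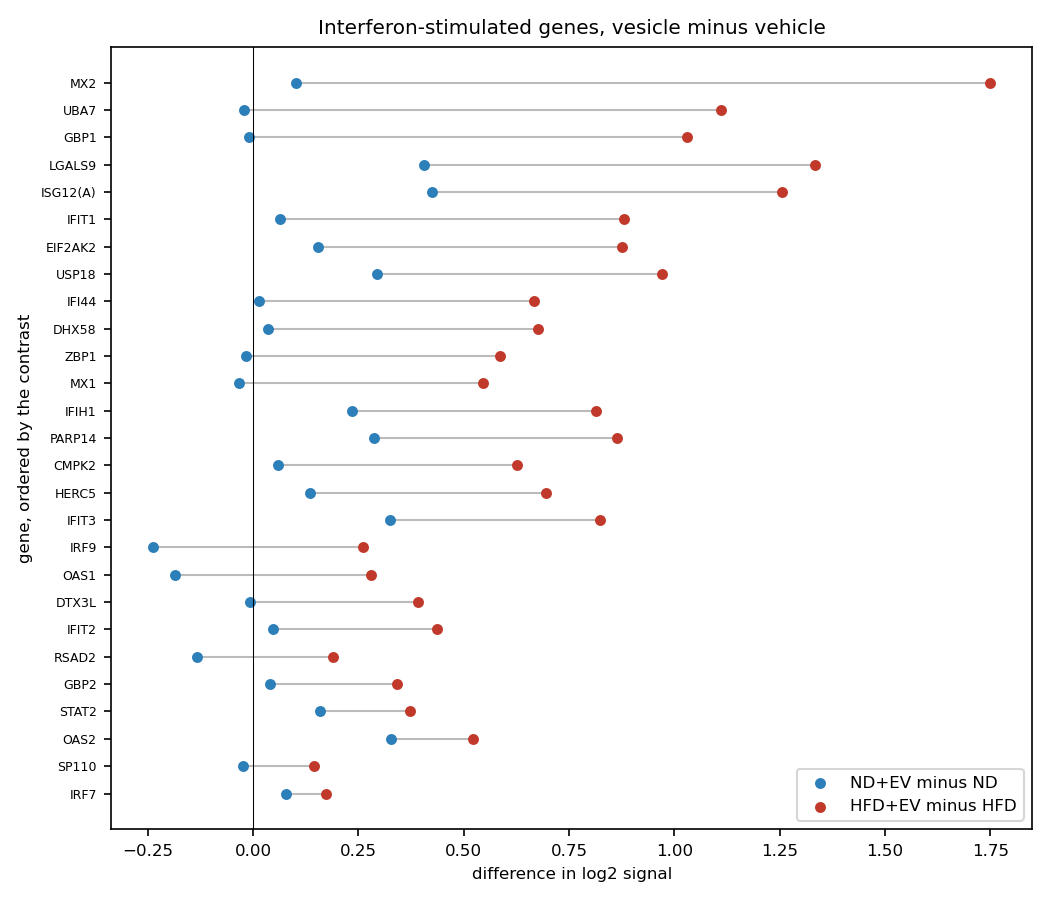
EV minus vehicle in mean log2 signal for each of the 27 measured interferon-stimulated genes, blue under ND and red under HFD, ordered by the contrast. The red point is to the right of the blue one in every gene, from IRF7 (0.08 and 0.17) to MX2 (0.10 and 1.75).

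A list score was formed for each array by centring every gene on its average over the 11 arrays and averaging the list's genes. The interferon score was 0.51, 0.56 and 0.44 in HFD+EV and between -0.28 and -0.04 on the other 8 arrays. HFD+EV replicate 1 lay between the other arrays of its group here. The list median stayed between 0.51 and 0.63 under all alternatives of scaling, filtering and arrays left out. With the 3 outlying arrays left out together, 26 of the 27 contrasts were above 0 and 10 had an unadjusted p under 0.05. Without ND replicates 1 and 3 alone all 27 were above 0 and 7 had such a p. After cyclic loess and after quantile normalization all 27 were above 0.

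The genes upstream of this response were not all higher. Of 9 measured genes for receptors, kinases and other transcription factors, 5 had a contrast above 0 and 4 below. None had an unadjusted p under 0.05, and the median was 0.02. The transcription factors IRF9 (0.50), STAT2 (0.21) and IRF7 (0.09) were counted in the interferon-stimulated list instead. The same holds for the RNA sensor IFIH1 (0.58) and for DHX58 (0.64), so that these counts depend on how genes were assigned to lists. JAK2, a receptor-associated kinase, had a contrast of -0.49, which was -0.32 without HFD replicate 2 and -0.33 without ND replicate 3. STAT3, the signal transducer of interleukin 6, had -0.60, which was -0.22 without HFD replicate 2, -0.36 without ND replicate 1 and -0.97 without HFD replicate 1. IRF3, which switches on interferon genes, had -0.69. IRF1, a transcription factor induced by interferon gamma, had 0.48. An interferon alpha probe set named IFN-ALPHA-10 in the annotation belongs to a family of near-identical genes, so that its identity is uncertain. It read 5.11, 4.29 and 4.61 in ND against 4.13, 3.33 and 4.04 in ND+EV, and 3.49 and 3.62 in HFD against 4.55, 3.95 and 3.91 in HFD+EV. EV and vehicle arrays did not overlap under either diet (contrast 1.42 ± 0.40, or 0.83 without the 3 outlying arrays), but the highest group was ND. The ND+EV reading of 3.33 and both HFD readings lay below 3.63, the average signal under which probe sets were dropped. Its contrast thus rests in part on very low signal.

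Among 21 measured genes of antigen presentation only TAP1, a subunit of the peptide transporter into the endoplasmic reticulum, had an unadjusted p under 0.05 (0.00164). TAP1 read 6.32, 6.47 and 6.12 in ND, 6.12, 5.86 and 6.05 in ND+EV, 6.05 and 6.32 in HFD, and 7.29, 6.74 and 6.81 in HFD+EV. The HFD+EV arrays were again above all others (contrast 1.05 ± 0.25). Its partner TAP2 had a contrast of 0.28, the class I genes SLA-5 and SLA-3 had 0.59 and 0.05, and the class II gene SLA-DRA had -0.54. Genes of the swine leukocyte antigen region resemble each other closely, so that their probe sets may share signal. The list median was -0.09, and it was 0.09 after cyclic loess and 0.16 without ND replicate 1.

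Markers of immune cells were set beside these genes, since a bulk signal cannot tell fewer cells of a type from less RNA per cell. Of 11 measured macrophage and monocyte markers 4 had a contrast above 0, with a median of -0.18, and their score lay between -0.08 and 0.27 in HFD+EV against -0.58 to 0.29 on the other arrays. MARCO, a scavenger receptor of macrophages, was the only one with an unadjusted p under 0.05 (contrast 0.53). Of 11 T and NK cell markers 7 were above 0, with a median of 0.15, and their mean signals lay between 3.78 (CD4) and 5.63 (GZMB). Of 5 markers of plasmacytoid dendritic cells, which release interferon, 4 were above 0, with a median of 0.28. Their score was 0.18, -0.00 and 0.12 in HFD+EV and between -0.11 and 0.17 elsewhere, so that the groups overlapped. Of 3 B and plasma cell markers, CD79B, part of the B cell receptor, had a contrast of 0.83 with an unadjusted p under 0.05. The part of these cells in the interferon result was not tested.

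The second question was which genes had vesicle differences in opposite directions. EV arrays did not overlap vehicle arrays under either diet, with opposite signs, in 177 genes. EV was above vehicle under ND and below it under HFD in 99 of them (1.02% of genes), with contrasts from -1.94 to -0.23 and a median of -0.76. The reverse pattern was seen in 78 (0.801%), with contrasts from 0.23 to 2.0 and a median of 0.52. Non-overlap in the same direction under both diets was seen in 101 genes. With 2 HFD arrays, non-overlap under HFD is met more easily (23.1% of genes) than under ND (12.5%).

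UBE2B, an E2 enzyme that passes ubiquitin to target proteins, had the largest contrast of the first pattern. It read 4.35, 5.33 and 4.15 in ND, 5.55, 6.04 and 5.66 in ND+EV, 6.19 and 6.58 in HFD, and 5.14, 5.97 and 5.67 in HFD+EV. EV and vehicle arrays did not overlap under either diet, with the ND mean lowest and the HFD mean highest of the groups. The EV difference was 1.14 under ND and -0.79 under HFD (contrast -1.94 ± 0.46, a fold of 3.83). Without both ND replicates 1 and 3 the contrast was -1.21, and with HFD+EV replicate 1 left out as well it was -0.99.

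ATG4A read 5.65, 6.29 and 6.06 in ND, 6.82, 6.71 and 6.70 in ND+EV, 7.43 and 7.23 in HFD, and 6.60, 6.72 and 7.02 in HFD+EV. No vehicle array fell within the range of the EV arrays (contrast -1.30 ± 0.26, 95% confidence interval -1.87 to -0.73). This interval is not adjusted for the choice of the gene by its values. CDO1, which oxidises cysteine on the way to taurine, also had its lowest group mean in ND and its highest in HFD, with 4.91, 5.54 and 5.27 in ND, 5.77, 5.78 and 5.84 in ND+EV, 6.67 and 6.09 in HFD, and 5.41, 5.75 and 5.78 in HFD+EV. Its contrast was -1.28 ± 0.29.

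RNF128, a membrane ubiquitin ligase, had EV differences of 0.83 under ND and -0.75 under HFD, and its HFD+EV arrays were spread widely (5.80, 7.13 and 7.20). TSPAN7, a tetraspanin of the cell membrane, had 0.69 and -0.75. RHOQ, a small GTPase of the insulin-dependent traffic of glucose transporters, had 0.72 and -0.63. SPON1, a secreted matrix protein, read 5.53, 6.28 and 6.30 in ND and 7.32 and 8.05 in HFD, with all 6 EV arrays between 6.29 and 7.12. Its differences were 0.62 and -0.88. RPN1, a subunit of the enzyme that attaches sugars to new proteins, had 0.64 and -0.54, and SS18L2 had 0.75 and -0.59. PLP2, a membrane protein, had 0.85 and -0.94, but its contrast of -1.79 ± 0.72 became -1.18 without ND replicate 1, at 6.57 the lowest of its arrays. RNF128, RHOQ and SS18L2 were at -0.68, -0.60 and -0.73 without the 3 outlying arrays, from -1.58, -1.35 and -1.34.

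The reverse pattern held fewer named genes. GNGT1, the gamma subunit of the retinal G protein transducin, read 5.51, 4.97 and 4.90 in ND, 4.55, 4.66 and 4.64 in ND+EV, 4.03 and 4.17 in HFD, and 5.19, 4.65 and 4.47 in HFD+EV. ND was the high group and HFD the low one (contrast 1.18 ± 0.31). DDI1, a ubiquitin-receptor protein with a protease fold, had EV differences of -0.48 under ND and 0.64 under HFD. USP20, which removes ubiquitin from proteins, had -0.50 and 0.50, and FTHL17, a ferritin heavy chain relative, -0.40 and 0.45. The USP20 contrast of 1.0 was 0.70 without HFD+EV replicate 1, which read 5.28 against 4.38 and 4.37 for the others of its group. FTHL17 was at 0.55 without the 3 outlying arrays, from 0.85.

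**Figure D3:**
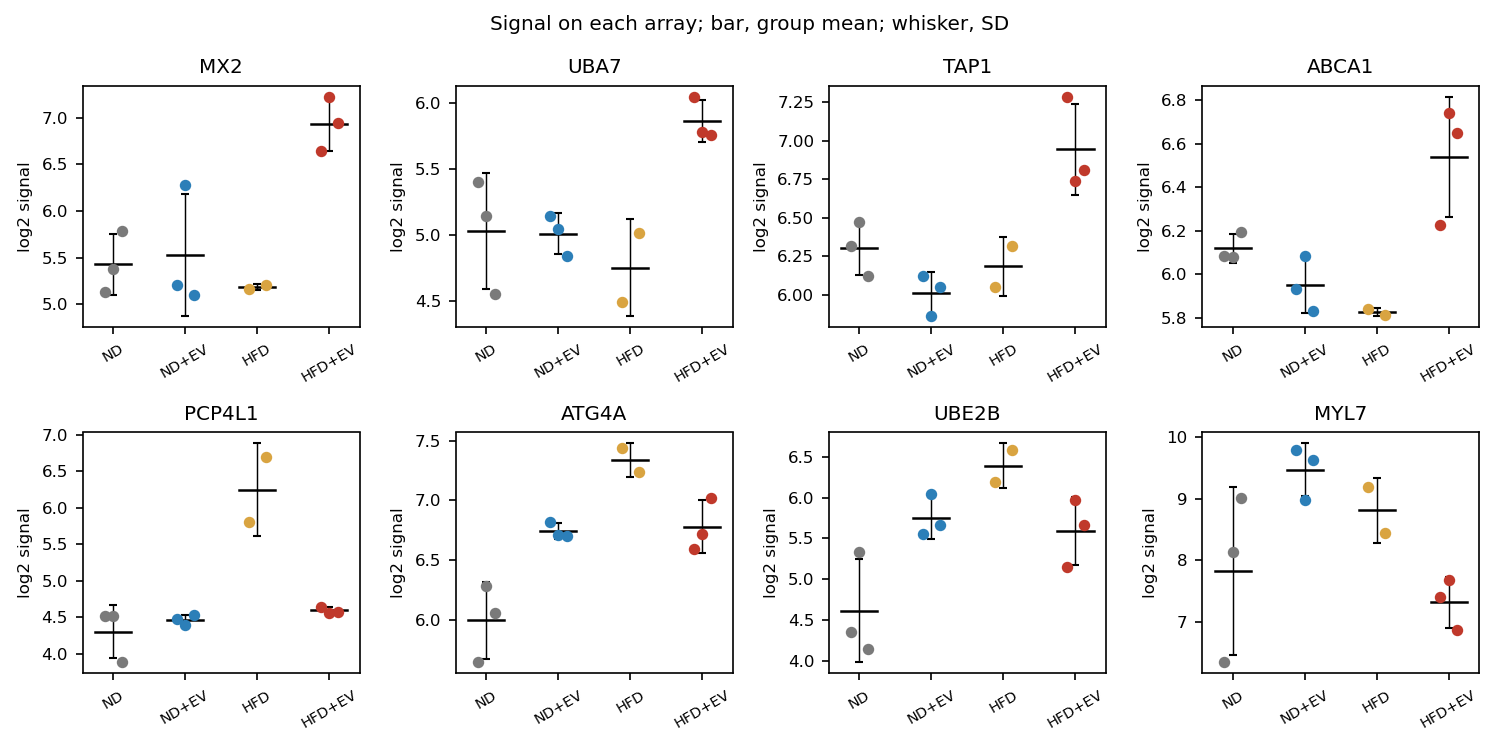
Log2 signal on each array for 8 genes, with the group mean as a bar and the SD as a whisker. MX2, UBA7, TAP1 and ABCA1 are highest in HFD+EV, PCP4L1 is high only in HFD, and ATG4A and UBE2B have ND lowest, HFD highest and the EV groups between them.

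The third question was which genes had a vesicle difference under 1 diet and nearly none under the other. A difference of at least 0.8 with no overlap under one diet, and of at most 0.15 under the other, was found in 40 genes (0.411%). EV was higher under ND in 17 of them, lower under ND in 1, higher under HFD in 11 and lower under HFD in 11.

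Under HFD, the genes higher with EV were led by FHL5 together with MX2, UBA7, GBP1 and IFIT1. FHL5, a LIM-domain coactivator of smooth muscle and testis, read 4.50 and 4.13 in HFD and 5.27, 5.30 and 5.10 in HFD+EV. All 6 ND and ND+EV arrays lay between 4.88 and 5.15, so that HFD was the group that differed (contrast 0.89 ± 0.20). The genes lower with EV had the same feature in the other direction. TRAPPC4, a subunit of the TRAPP complex that tethers transport vesicles, read 6.61 and 6.90 in HFD, against 5.48 to 5.92 under ND and 6.07, 5.80 and 5.81 in HFD+EV (contrast -0.97 ± 0.22). GNB5, a G protein beta subunit, read 5.71 and 5.83 in HFD and 4.61 to 5.19 on the other 9 arrays, and SEPT6, a septin of the cytoskeleton, 6.75 and 7.04 against 5.31 to 6.05. PDIA2, a disulfide isomerase, had EV differences of 0.08 under ND and -1.30 under HFD, but the platform annotation pairs this probe set with the gene ID of PDIA2 and the symbol of its neighbour RGS11, so that its identity is uncertain. The other PDIA2 probe set had a contrast of -0.027. SNX24, a sorting nexin of endosomes, had 0.13 and -0.97, while its second probe set pointed the other way. Both HFD arrays were above the other 9 in 576 of all genes (5.91%).

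Under ND, RNGTT, the enzyme that caps messenger RNA, read 7.68, 8.26 and 7.90 in ND and between 8.77 and 9.04 on the other 8 arrays. Its EV difference was 0.94 under ND and -0.00 under HFD (contrast -0.95 ± 0.23). SKA2, a subunit of the spindle attachment complex, had 1.13 and -0.04, and SLC25A27, a mitochondrial uncoupling carrier, 0.90 and -0.08. NDUFS4, an accessory subunit of respiratory complex I, had 1.04 and -0.15, and its contrast of -1.19 was -0.34 without ND replicates 1 and 3 and -0.16 without the 3 outlying arrays. Without those 3, SKA2 was at -0.55 and SLC25A27 at -0.24. The microRNA gene MIR574 had 0.87 and 0.04, and its contrast of -0.83 was -0.47 without HFD replicate 2. The single gene lower with EV under ND was annotated as ribosomal RNA (RN5-8S, -1.14 and -0.08), with arrays from 9.60 to 12.67. Its contrast of 1.06 ± 0.61 was 0.54 without HFD+EV replicate 1.

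Of the genes with the smallest unadjusted p, PCP4L1, an IQ-motif relative of a calmodulin regulator, separated HFD from all other groups. It read 5.80 and 6.70 in HFD and between 3.88 and 4.65 on the other 9 arrays. The contrast was -1.82 ± 0.34 (unadjusted p = 0.000261), between -2.27 and -1.37 when an HFD array was left out. TSPYL4, a nucleosome assembly family member, was likewise high in HFD (6.77 and 6.35, against 5.17 to 5.88 elsewhere; contrast -1.26 ± 0.29). HPRT1, the purine salvage enzyme, separated ND instead. Its ND arrays read 4.83, 4.61 and 4.80, and the other 8 lay between 5.13 and 5.84 (contrast -1.0 ± 0.23).

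STOX1, a winged-helix DNA-binding protein, had EV differences of 0.41 under ND and -0.92 under HFD (contrast -1.33). TXN2, the mitochondrial thioredoxin, read 7.43 and 7.88 in HFD and 6.78, 6.81 and 6.91 in HFD+EV, while ND and ND+EV overlapped (contrast -1.21). UBE2L3, another E2 enzyme of ubiquitin transfer, had 0.84 and -0.28 (contrast -1.12), and NAP1L5, a histone chaperone relative, 0.73 and -0.47 (contrast -1.20).

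On the higher side, the microRNA gene MIR181A-2 read 4.46 and 4.93 in HFD and between 5.36 and 6.18 on the other 9 arrays (contrast 1.40 ± 0.30). MIR328, another microRNA gene, read 10.21, 9.49 and 10.61 in ND and between 8.49 and 9.89 elsewhere (contrast 1.60 ± 0.47). MIR328 was at 0.69 without the 3 outlying arrays. A whole-transcript array reads the precursor, so that these values say nothing of the mature microRNA. CDHR4, a cadherin-related protein, read 4.86, 4.44 and 4.94 in ND, 4.54, 4.28 and 4.37 in ND+EV, 4.24 and 4.34 in HFD, and 4.89, 5.16 and 5.12 in HFD+EV (contrast 1.11 ± 0.23). PAX1, a developmental transcription factor, had -0.72 under ND and 0.31 under HFD (contrast 1.03, or 0.48 without the 3 outlying arrays).

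The nuclear-encoded subunits of the respiratory chain had the lowest list median. All 31 measured members had a contrast below 0, with a median of -0.81, and 14 had an unadjusted p under 0.05, against 4.98% of all genes in that direction. The median of the members' mean signals was 8.43, against 7.96 for ribosomal proteins, 6.57 for the proteasome and 5.2 for the interferon list. Over the probe sets kept, the contrast was lower at higher mean signal (correlation -0.26). The part of signal level in the list medians was not tested. After cyclic loess the respiratory median was -0.52. EV minus vehicle was above 0 in all 31 under ND (median 0.71) and in 4 of 31 under HFD (median -0.18). ND was the group farthest from the others in 28 of the 31, against 34.3% of all genes. ATP5A1, the alpha subunit of ATP synthase, read 9.95, 10.17 and 9.93 in ND, 10.67, 10.77 and 10.80 in ND+EV, 11.45 and 11.22 in HFD, and 10.57, 11.15 and 11.53 in HFD+EV. The ND arrays lay below all others (contrast -0.98 ± 0.31).

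Subunits of complex I followed the same order. NDUFB8 read 6.98, 7.88 and 7.75 in ND, 8.27, 8.74 and 8.46 in ND+EV, 8.93 and 8.86 in HFD, and 7.86, 8.90 and 8.76 in HFD+EV (contrast -1.34 ± 0.44). ND was low, and HFD+EV replicate 1 fell within the ND range. NDUFA12, an accessory subunit, had a smaller contrast of -0.56 ± 0.20, with ND arrays at 9.15, 9.29 and 8.98. NDUFC2, another complex I subunit, named here after its values were seen, had the largest contrast of the list (-1.85) and read 4.81 in ND replicate 1 against 5.61 to 8.11 on the other arrays.

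The respiratory score was -1.12, -0.18 and -0.53 in ND, 0.01, 0.32 and 0.04 in ND+EV, 0.43 and 0.36 in HFD, and -0.25, 0.51 and 0.40 in HFD+EV. The 3 outlying arrays were the lowest. Without ND replicate 1 and HFD+EV replicate 1 the list median was -0.34, and with ND replicate 3 left out as well it was -0.30. ATP5A1 was then at -0.57, NDUFB8 at -0.67 and NDUFA12 at -0.31.

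Genes that make and degrade protein also had medians below 0. Of 35 cytosolic ribosomal protein genes, many with near-identical pseudogene copies that can share a probe set, 33 were below 0 (median -0.64). Lower contrasts with an unadjusted p under 0.05 were seen in 7 of the 35, against 4.98% of all genes. RPS27A, a fusion of ubiquitin and a ribosomal protein, read 6.55, 7.68 and 7.28 in ND, 8.08, 8.30 and 7.87 in ND+EV, 8.17 and 7.95 in HFD, and 7.47, 8.02 and 7.87 in HFD+EV (contrast -1.19 ± 0.39). ND was lowest, with HFD+EV replicate 1 within its range. RPL31 had -0.89 and RPL32 -0.74, and the EV difference of RPL32 was 0.74 under ND and -0.00 under HFD. The list median was -0.17 without the 3 outlying arrays, with RPS27A at -0.52, RPL32 at -0.41 and RPL31 at -0.19.

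All 22 measured proteasome genes were below 0 (median -0.54). The unadjusted p was under 0.05 in 8 of them, against 4.98% of all genes in that direction. PSMD14, which cleaves ubiquitin chains from substrates at the proteasome lid, read 6.18, 6.58 and 6.29 in ND, 6.92, 7.15 and 7.03 in ND+EV, 7.11 and 7.67 in HFD, and 6.77, 7.13 and 7.01 in HFD+EV. ND lay below all other arrays, and the HFD arrays overlapped those of ND+EV and HFD+EV (contrast -1.11 ± 0.26). PSMB6, a catalytic beta subunit, had EV differences of 0.85 under ND and -0.30 under HFD, and PSMD8, a lid subunit, 0.75 and -0.54. The list median was -0.01 without the 3 outlying arrays, while PSMD14 was at -0.78, PSMD8 at -0.72 and PSMB6 at -0.63 without them.

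Genes of fuel metabolism mostly had contrasts below 0, with few members past the unadjusted threshold. All 13 genes of the TCA cycle were below 0 (median -0.46), as were 16 of 17 of glycolysis and glycogen use (-0.50) and 15 of 20 of fatty acid oxidation (-0.27), with 1, 2 and 2 at an unadjusted p under 0.05, where 4.98% of all genes had a lower contrast at that p. DLAT, a subunit of pyruvate dehydrogenase, read 8.30 and 8.22 in HFD and 6.91 to 7.51 in ND, with all 6 EV arrays between 7.42 and 8.19 (contrast -0.74 ± 0.31). Its probe sets pointed in opposite directions. PYGM, the muscle glycogen phosphorylase, had -0.78 and GPI, which interconverts hexose phosphates, -0.61. In fatty acid oxidation SLC25A20, the carnitine carrier of the inner mitochondrial membrane, had -0.57, and ECHS1, which hydrates enoyl-CoA, -1.05. ECHS1 was at -0.64 without ND replicate 1. Without the 3 outlying arrays the list medians were -0.11, -0.13 and 0.05, with DLAT and GPI both at -0.17, SLC25A20 at -0.37 and ECHS1 at -0.65.

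**Figure D4:**
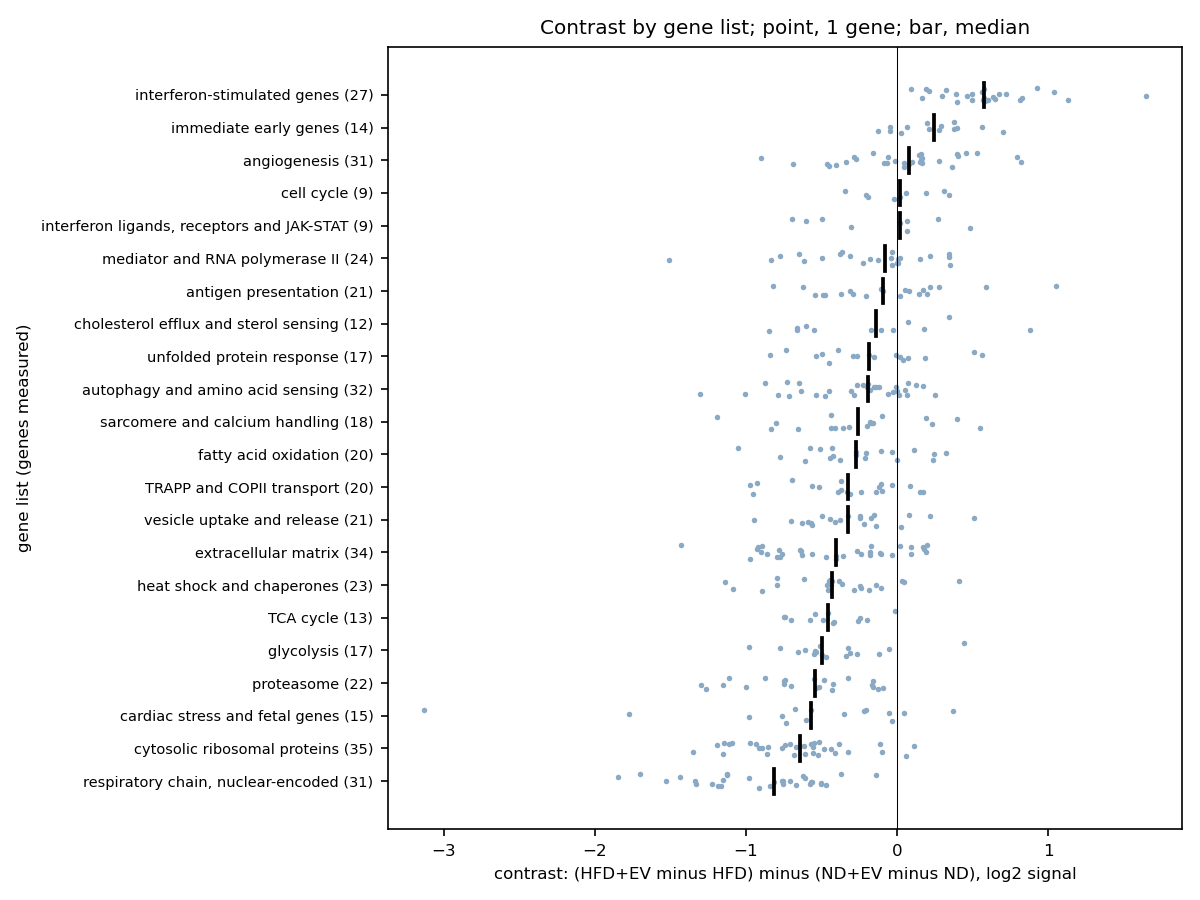
The contrast of each measured gene (point) in 22 lists, with the list median as a bar and the number of genes in brackets. Interferon-stimulated genes lie wholly above 0 (median 0.57), while respiratory chain, proteasome and TCA cycle genes lie wholly below it (medians -0.81, -0.54 and -0.46).

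Autophagy and amino acid sensing held several of the named genes. Of 32 measured members 25 were below 0, with a median of -0.19, and 6 had an unadjusted p under 0.05, against 4.98% of genes. Besides ATG4A the rule named RRAGC and LAMTOR1, parts of the lysosomal machinery that reports amino acids to the kinase mTORC1. RRAGC read 4.32, 4.45 and 4.25 in ND, 4.83, 4.66 and 4.65 in ND+EV, 5.15 and 4.99 in HFD, and 4.49, 4.73 and 4.75 in HFD+EV. EV and vehicle arrays did not overlap under either diet (contrast -0.79 ± 0.18, or -0.67 without ND replicates 1 and 3). LAMTOR1 read 4.75, 5.10 and 4.79 in ND against 5.38, 5.43 and 5.26 in ND+EV, and 5.10 and 5.10 in HFD against 4.88, 5.07 and 4.88 in HFD+EV (contrast -0.63 ± 0.19).

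The other 3 members at that p were chosen after their values were seen. SQSTM1, the receptor that carries ubiquitinated cargo to autophagosomes, had a contrast of -0.87, TFEB, the transcription factor of lysosomal genes, -0.65, and RRAGB, a partner GTPase of RRAGC, -0.47. SQSTM1 read 6.03, 6.50 and 6.32 in ND, 6.66, 6.72 and 6.67 in ND+EV, 7.36 and 7.72 in HFD, and 6.74, 7.23 and 7.23 in HFD+EV. Its groups did not overlap under either diet. The list median was -0.06 without the 3 outlying arrays, with LAMTOR1 at -0.38.

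**Figure D5:**
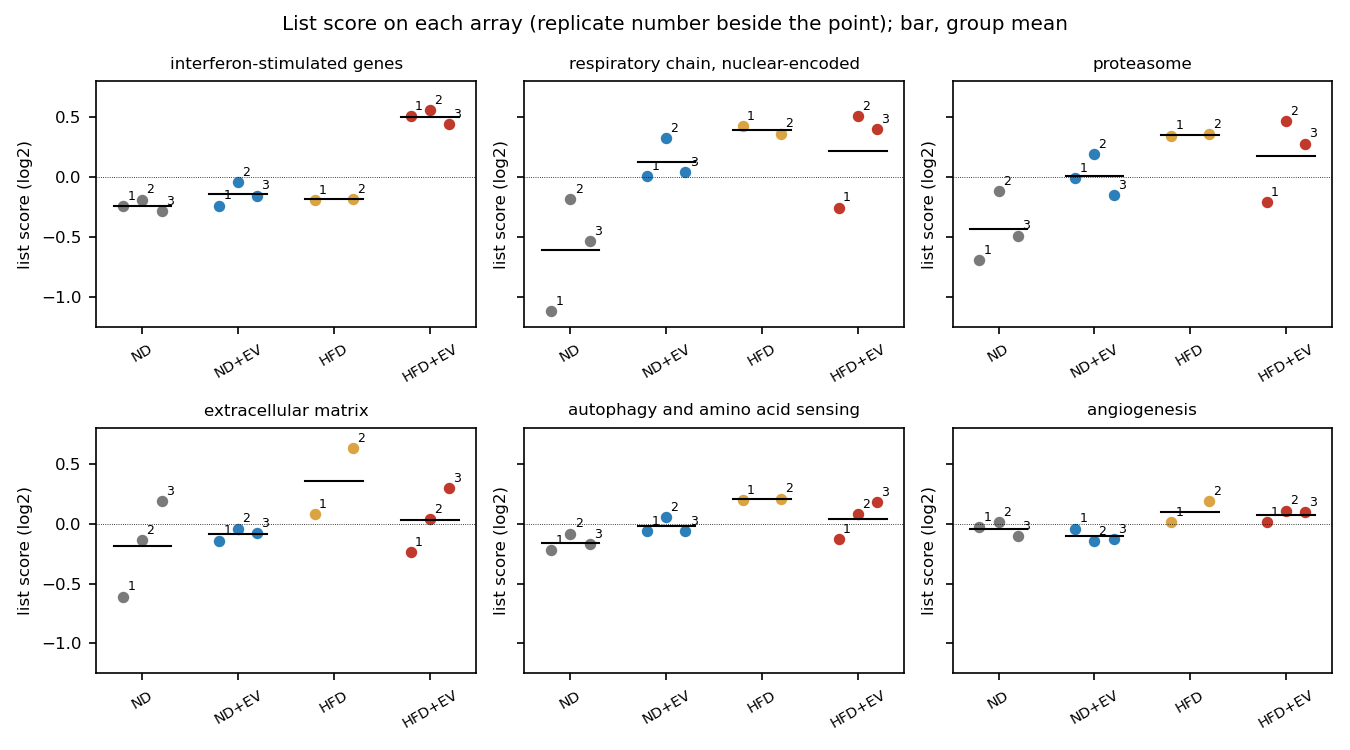
List scores on each array, with the replicate number beside the point and the group mean as a bar. The interferon score is 0.44 to 0.56 in HFD+EV and below 0 elsewhere, while the respiratory and proteasome scores of HFD+EV replicate 1 (-0.25 and -0.21) lie near those of the ND arrays.

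In the lists of extracellular matrix, chaperones, and TRAPP and COPII transport, HFD was farthest from the other groups more often than ND. Of 34 measured matrix genes 27 were below 0 (median -0.40), and HFD was the group farthest from the others in 24, against 33.9% of all genes. POSTN, a matrix protein of activated fibroblasts, read 5.90, 6.90 and 7.33 in ND, 7.07, 7.53 and 7.33 in ND+EV, 7.71 and 8.62 in HFD, and 6.90, 7.36 and 7.76 in HFD+EV. EV overlapped vehicle under both diets, and HFD replicate 2 was the highest array (contrast -1.43 ± 0.54). COL14A1, a fibril-associated collagen, read 7.11 and 7.33 in HFD and 6.05 to 7.08 elsewhere (contrast -0.76 ± 0.27), and COL15A1, a collagen of basement membranes, had -0.89. Of 9 fibroblast markers 8 were below 0, with a median of -0.45. The markers include matrix genes such as POSTN, so that the lists are not independent. Their score was 0.11 and 0.65 in HFD and lay between -0.82 and 0.43 on the other arrays, and their part in the matrix values was not tested. COL14A1 was at -0.45 and COL15A1 at -0.14 without the 3 outlying arrays. The matrix median was -0.10 without HFD replicate 2, -0.68 without HFD replicate 1, -0.21 without ND replicate 1 and -0.071 without ND replicate 1 and HFD+EV replicate 1.

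Of 23 heat shock and chaperone genes 20 were below 0 (median -0.43), with HFD farthest in 15, against 33.9% of all genes. HSPE1 and HSPD1, the mitochondrial chaperonin pair, had contrasts of -1.14 ± 0.38 and -0.62 ± 0.22. HSPD1 read 5.89 and 5.85 in HFD and 5.24 to 5.83 on the other 9 arrays, so that HFD was just above them. HSPB2, a small heat shock protein of muscle, had -0.89. Without the 3 outlying arrays the list median was -0.09, with HSPE1 at -0.49 and HSPD1 at -0.26. Genes of the unfolded protein response were closer to the background, with 11 of 17 below 0 and a median of -0.18. In this list DNAJB9, a chaperone of the endoplasmic reticulum, had -0.84 and the stress kinase EIF2AK3 0.51, both with an unadjusted p over 0.05. Without HFD replicate 2 these were -0.26 and 0.82, and without HFD replicate 1 -1.42 and 0.19.

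In the list of TRAPP and COPII transport, which carries cargo out of the endoplasmic reticulum, 17 of 20 were below 0 (median -0.32). HFD was farthest in 14 of these genes, against 33.9% of all genes. TRAPPC1 read 6.04 and 5.90 in HFD and 4.70 to 5.46 elsewhere (contrast -0.69 ± 0.27), and TRAPPC5 had -0.96, or -0.62 without ND replicate 1. The list median was -0.15 with HFD replicate 2 left out and -0.21 with replicate 1 of HFD+EV left out. Genes of vesicle uptake and release, the machinery that makes and takes up EV, had 17 of 21 below 0 (median -0.32). HFD was farthest in 9 of the 21 and ND in 7, against 33.9% and 34.3% of all genes. STAM, which sorts ubiquitinated cargo on endosomes, read 7.27 and 7.28 in HFD and 6.36 to 6.96 elsewhere (contrast -0.56 ± 0.20). CHMP4B, an ESCRT subunit that cuts membrane necks, had -0.95, and LAMP1, a lysosomal membrane protein, -0.57. Without the 3 outlying arrays the list median was 0.01, with CHMP4B at -0.35 and, in the transport list, TRAPPC1 at -0.29.

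Genes of cholesterol efflux and sterol sensing held members in both directions. ABCA1, which exports cholesterol to apolipoprotein A-I, read 6.08, 6.08 and 6.20 in ND, 5.93, 6.09 and 5.83 in ND+EV, 5.84 and 5.81 in HFD, and 6.23, 6.74 and 6.65 in HFD+EV. The HFD+EV arrays were above all others and HFD was among the lowest (contrast 0.88 ± 0.22, a fold of 1.64 with EV under HFD). The contrast lay between 0.78 and 1.04 when single arrays were left out. HMGCS1, an enzyme of cholesterol synthesis, had -0.60. SCARB1, the receptor for high-density lipoprotein, had -0.66, but its second probe set pointed the other way. Over the 12 genes measured 4 were above 0 and 8 below, with a median of -0.14. An unadjusted p under 0.05 was seen in 1 of the higher and 3 of the lower, against 2.68% and 4.98% of all genes. The third of these lower genes, named after its values were seen, was the desaturase SCD at -0.85.

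Angiogenesis genes, the subject of the series, showed no common direction. Of 31 measured members 18 were above 0 and 13 below, and the median was 0.08. VEGFA, the main growth factor of vessel sprouting, read 10.52, 9.87 and 9.86 in ND, 9.72, 9.32 and 9.28 in ND+EV, 9.66 and 9.55 in HFD, and 9.51, 9.33 and 9.41 in HFD+EV. EV arrays were below vehicle arrays under both diets. Its contrast of 0.46 ± 0.28 was 0.24 without ND replicate 1 and 0.85 after cyclic loess. KDR, its main receptor, had -0.46 ± 0.51, with a range of 5.94 to 7.43 within ND, and its probe sets disagreed in sign. The contrast of KDR was 0.49 without ND replicates 1 and 3.

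The other genes given whatever their values were small in contrast. FLT1, a decoy receptor of VEGFA, had -0.01 ± 0.27, TEK, the angiopoietin receptor, -0.06 ± 0.18, and its ligands ANGPT1 and ANGPT2 0.16 ± 0.18 and 0.17 ± 0.26. NOS3, the endothelial nitric oxide synthase, had 0.37 ± 0.28, HIF1A, the hypoxia-response factor, -0.40 ± 0.35, and FGF2, a fibroblast growth factor, 0.08 ± 0.36. The 95% intervals reached from -1.58 to 0.66 for KDR and from -0.17 to 1.09 for VEGFA, so that the values allow contrasts of either sign within those bounds. With single arrays left out NOS3 ranged from 0.18 to 0.56 and HIF1A from -0.61 to -0.19. The signs of FLT1 and TEK changed after cyclic loess and after quantile normalization.

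Of the 31 genes 5 had an unadjusted p under 0.05, against 7.66% of all genes. Of these 3 were above 0 and 2 below, where the shares of all genes were 2.68% and 4.98%. ROBO4, a guidance receptor of endothelium that steadies vessels, read 6.35, 5.86 and 6.14 in ND, 5.73, 5.73 and 5.91 in ND+EV, 5.56 and 6.03 in HFD, and 6.09, 6.25 and 6.46 in HFD+EV. EV was above vehicle under HFD without overlap, and EV and vehicle overlapped under ND (contrast 0.80 ± 0.26). NOTCH4, the endothelial Notch receptor, had EV differences of -0.45 and 0.38 (contrast 0.82 ± 0.30). CXCR4, the receptor that guides cells along the chemokine CXCL12, had -0.68 ± 0.25. That value was -0.33 without HFD replicate 2, at 5.42 the highest array, and -1.04 without HFD replicate 1. CXCL12 itself (-0.45) and EFNB2, the ephrin of arterial endothelium (0.53), were named after their values were seen. Of 7 endothelial markers 5 were above 0 with a median of 0.04, and none had an unadjusted p under 0.05.

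Genes of cardiac stress and the fetal program were mostly below 0 (13 of 15, median -0.57). MYL7, the atrial myosin light chain, had the largest contrast of any gene named by the rule, at -3.13 ± 0.82. It read 6.35, 8.13 and 9.0 in ND, 9.79, 8.98 and 9.63 in ND+EV, 9.18 and 8.44 in HFD, and 7.40, 7.68 and 6.88 in HFD+EV. The HFD+EV arrays lay below those of HFD and ND+EV, whereas ND spanned nearly the whole range. ANKRD1, a stress-responsive ankyrin protein of the sarcomere, read 11.70 and 11.64 in HFD and 10.55 to 11.44 elsewhere (contrast -0.76 ± 0.32). ACTA1, the skeletal actin of the fetal program, had -0.67 ± 0.28. Without the 3 outlying arrays these were -0.26 and -0.39. The list median was -0.26 with HFD replicate 2 left out, -0.33 and -0.37 with replicates 2 and 1 of HFD+EV left out, and -0.25 after cyclic loess.

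Atrial markers were also read as a list, which includes MYL7 and SLN. Of 8 atrial genes 7 were below 0 (median -0.37), and the atrial score was 0.23 and 0.83 in HFD and between -0.50 and 0.20 on the other arrays. SLN, the atrial regulator of the calcium pump, chosen here after its values were seen, read 6.73 in HFD replicate 2 and 3.18 to 3.94 on the other 10 arrays. Its contrast was -1.63 (unadjusted p = 0.0718). Without HFD replicate 1, which leaves HFD with that single array, it was -3.11 and SLN passed the limma test (adjusted p = 0.0152). That fit takes the lone HFD array to vary like those of the other groups. The part of atrial tissue in these values was not tested.

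Sarcomere and calcium handling genes had 14 of 18 below 0 (median -0.26), and the median was 0.16 after cyclic loess. CASQ1, the skeletal calcium store protein, read 6.72 and 6.55 in HFD, 5.32 to 5.65 under ND, and 5.0, 5.07 and 6.10 in HFD+EV (contrast -1.19 ± 0.37). HFD was above all other arrays. TPM1, the muscle tropomyosin, had -0.80 and was at -0.50 without HFD+EV replicate 1 and -0.28 without the 3 outlying arrays.

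The immediate early genes, which respond within minutes to stress or growth signals, had 11 of 14 above 0 (median 0.24). The median was -0.06 without HFD+EV replicate 3, 0.12 without ND replicate 3 and 0.43 without HFD+EV replicate 1. CYR61, a matricellular angiogenic protein, read 5.46, 5.37 and 5.52 in ND, 5.0, 5.19 and 5.02 in ND+EV, 4.73 and 4.97 in HFD, and 4.93, 5.19 and 5.40 in HFD+EV. ND was above all ND+EV arrays, and HFD and HFD+EV overlapped (contrast 0.70 ± 0.21). The nuclear receptor NR4A2 had 0.40 (0.26 without HFD replicate 2) and the growth regulator MYC 0.30.

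In the mediator and RNA polymerase II list 9 of 24 were above 0 (median -0.08). MED10, a subunit of the mediator core, read 5.29, 5.19 and 5.44 in ND, 5.81, 5.80 and 5.80 in ND+EV, 6.14 and 5.91 in HFD, and 5.51, 5.84 and 5.73 in HFD+EV. ND was below and HFD above all EV arrays (contrast -0.83 ± 0.19). POLR2F, a shared polymerase subunit, had -0.78, or -0.51 without ND replicate 1. The 9 cell cycle genes measured were split 5 to 4 about a median of 0.02, with AURKA, a mitotic kinase, at -0.34 and MCM2, a replication helicase subunit, at 0.31. AURKA was at -0.14 without ND replicate 3 and -0.22 without ND+EV replicate 3, and MCM2 at 0.18 without HFD replicate 1 and 0.20 without ND replicate 3.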

How the data were processed

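Per the labels' protocols, total RNA of each sample (50 ng) was labelled for an Affymetrix whole-transcript array, and per the submitters' processing notes the tool was Transcriptome Analysis Console. The authors deposited normalized log2 signal for 27558 probe sets. The normalization and array annotation version were not given in the sources used here. The same holds for the genome build, hence positions are left out. Base 2 is inferred from the range. Platform annotation, which can be old, named a single gene for 13157 of these; 523 carried more than 1 symbol and 13878 had no symbol. Of the first, 12841 matched a current table, which gave another symbol for 7; these were named by gene ID.

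Probe sets in the dimmest 25% by average (under 3.63) were dropped. A model with 1 mean per group (lmFit and eBayes of limma 3.58.1, R 4.3.3; 7 residual degrees of freedom) was fitted to the remaining 20668. The contrast, 1 in all, had a two-sided test at 0.05 after Benjamini-Hochberg adjustment. On data simulated for this contrast with 20668 probe sets, 200 of them changed, 87% of contrasts of log2 size 2 and 95% of size 3 were recovered, with 12 false calls. The simulated noise was normal and independent between probe sets, without outlying arrays, and the change was put in HFD+EV alone. Smaller contrasts were not simulated, so that recovery of the sizes mostly seen here is unknown.

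The gene lists and the naming rule were chosen with earlier results of these data known. The rule took 12 genes of smallest p in each direction with a contrast of at least 1, up to 10 opposite-direction genes per pattern with at least 0.4 under each diet, up to 5 single-diet genes per pattern, 3 genes per pathway list, and 9 angiogenesis genes whatever their values. It gave 112 genes. Other genes named were chosen after their values were seen. Uncharacterised loci were counted, not named. Counts of motifs in promoters, planned, were not made, since no promoter sequence was used here. Alternatives were other scaling, filters, variance models, array weights, a replicate block and arrays left out.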

Additional observations from a re-analysis of the deposited data

Results flagged for a closer look

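The score of the list for autophagy and amino acid sensing met the rule for opposite movement. No other score met it among the 22 pathway and 16 cell type lists, of which the smallest were left out. All ND+EV arrays were above all ND arrays (EV minus vehicle 0.14), and all HFD+EV arrays were below both HFD arrays (-0.16). The difference of these differences was -0.30, and it was not tested. The margins were narrow. ND replicate 2 was at -0.082 and ND+EV replicate 3 at -0.06, while HFD+EV replicate 3 was at 0.18 and HFD replicate 1 at 0.196.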

How the results depend on the processing

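The contrast gave 0 calls under every setting except 1: without HFD replicate 1 there was 1 call, SLN (range 0 to 1 over the arrays left out in turn). In the fit with array weights the smallest adjusted p was 0.208. No alternative gave a call for any of the 112 named genes, and 105 kept their sign in all of them. Of 484 pairs of a list and an alternative 409 were close to the reported median, 47 moved and 28 changed sign. Close means within the SD of that list's score between arrays of a group. With no filter and with the variance model changed, neither list medians nor contrasts of named genes could change. Agreement there is by construction. The unadjusted interaction count of 1740 probe sets lay between 1122 and 2551 with single arrays left out and was 1063 without ND replicate 1 and HFD+EV replicate 1. The share of genes with an unadjusted p under 0.05 that were higher was 35.0%, and it was 48.4% without ND replicates 1 and 3. The arrays left out together with HFD+EV replicate 1, 3 in all, were chosen after seeing the data. In what follows A means without ND replicates 1 and 3, B without ND replicate 1 and HFD+EV replicate 1, and C without all 3. The opposite-direction genes numbered 549 (A), 297 (B) and 772 (C), and the same-direction genes 537, 419 and 880. With single arrays left out these counts were 200 to 408 and 129 to 268, above the reported 177 and 101, since fewer arrays overlap less by construction. Single-diet genes numbered 34 to 93, around the reported 40.

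The labels give the groups shared replicate numbers. Deviations of same-numbered arrays correlated between -0.10 and 0.34, not all above 0.1, and most for replicate 1 of ND and HFD+EV. What same-numbered arrays share beside the number was not tested. With the number as a replicate block there were 0 calls (smallest adjusted p 0.28, unadjusted interaction count 2297), and the medians of the JAK-STAT and cell cycle lists became -0.013 and -0.013.

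List medians that moved or changed sign were as follows, the cause of each not tested. After cyclic loess the TCA cycle was at -0.26, cardiac stress at -0.25, glycolysis at -0.33, sarcomere at 0.16 and antigen presentation at 0.087. After quantile normalization antigen presentation was at 0.013, cell cycle at -0.014 and sarcomere at -0.088. Array weights put antigen presentation at 0.016. With the lower 50% of probe sets left out, cell cycle was at -0.022 and cholesterol at -0.57. Under A, antigen presentation was at 0.15, cholesterol at -0.24, ribosomal proteins at -0.28, glycolysis at -0.24, heat shock at -0.22, proteasome at -0.19, sarcomere at -0.12 and vesicle uptake at -0.088. Under B, TCA cycle was at -0.17, TRAPP at -0.086, antigen presentation at 0.18, cardiac stress at -0.21, ribosomal proteins at -0.27, matrix at -0.071, fatty acid oxidation at -0.086, glycolysis at -0.17, heat shock at -0.11, JAK-STAT at -0.11, proteasome at -0.23, respiratory chain at -0.34, sarcomere at -0.088 and vesicle uptake at -0.079. Under C, TCA cycle was at -0.11, TRAPP at -0.055, angiogenesis at 0.17, antigen presentation at 0.26, autophagy at -0.058, cardiac stress at -0.26, ribosomal proteins at -0.17, fatty acid oxidation at 0.048, glycolysis at -0.13, heat shock at -0.085, JAK-STAT at 0.17, mediator at 0.011, proteasome at -0.0089, respiratory chain at -0.30, sarcomere at -0.0086 and vesicle uptake at 0.013.

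With single arrays left out, list medians ranged from -0.55 to -0.32 (TCA cycle), -0.42 to -0.15 (TRAPP), -0.03 to 0.12 (angiogenesis), -0.27 to 0.16 (antigen presentation), -0.26 to -0.089 (autophagy), -0.70 to -0.26 (cardiac stress), -0.21 to 0.30 (cell cycle), -0.23 to -0.064 (cholesterol), -0.81 to -0.37 (ribosomal proteins), -0.68 to -0.10 (matrix), -0.40 to -0.12 (fatty acid oxidation), -0.59 to -0.31 (glycolysis), -0.49 to -0.24 (heat shock), -0.058 to 0.43 (immediate early), -0.23 to 0.072 (JAK-STAT), 0.51 to 0.61 (interferon-stimulated), -0.15 to -0.07 (mediator), -0.75 to -0.44 (proteasome), -1.08 to -0.57 (respiratory chain), -0.37 to -0.14 (sarcomere), -0.24 to -0.02 (unfolded protein response) and -0.45 to -0.16 (vesicle uptake).

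Of named genes, FLT1 became 0.088 (cyclic loess), 0.087 (quantile), 0.13 (array weights), 0.16 (A), 0.29 (B) and 0.31 (C). TEK became 0.11 (cyclic loess), 0.091 (quantile), 0.12 (A) and 0.10 (C). KDR became 0.49 (A) and 0.63 (C), FGF2 -0.22 (B) and -0.035 (C), HIF1A 0.083 (C) and GAPDH 0.044 (cyclic loess). Single arrays left out gave up to 0.46 for ANGPT2 (from -0.13), 0.53 for FGF2 (from -0.37), 0.14 for FLT1 (from -0.17) and 0.034 for TEK. Promoter motifs were not counted, so no other motif or window was tried.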
